A study of Mus musculus with 12 samples.

Results

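Transcripts of 35 endothelial marker genes were followed in ventricles of 12 mice, among 14957 genes in the deposited tables. The set was a list of 36 symbols of vascular junction, receptor, capillary, sprouting, adhesion and transcription factor genes; Selp was not analysed here. The 4 TAC-BacNav mice had transverse aortic constriction (TAC), a surgical narrowing of the aorta that overloads the left ventricle, and received AAV9-MHCK7-BacNav-mScarlet, an adeno-associated virus carrying BacNav, a bacterial voltage-gated sodium channel, with the red fluorescent protein mScarlet. The 4 TAC-mScarlet mice had TAC and the same vector without the channel (AAV9-MHCK7-mScarlet). The 4 Sham-NT mice were operated without constriction and received PBS. All were WT C57Bl/6J mice, and their age, sex and time after surgery were not given in the sources used here. MHCK7 is a promoter active in heart and skeletal muscle, so the vectors were built for muscle cells and not for endothelium. TAC-mScarlet and Sham-NT differ in both surgery and vector, whose effects cannot be told apart.

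Endothelial cells line every vessel of the heart, hold their barrier with VE-cadherin and claudin junctions, and pass fatty acids from the blood to cardiomyocytes. Angiopoietins act through the Tie receptors to set how quiet vessels stay, whereas apelin and its receptor and the Notch ligand Dll4 act in sprouting. Activated endothelium displays selectins and adhesion molecules that catch leukocytes.

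Totals were between 7.36 and 11.5 M counts (mega-counts) in TAC-BacNav, 8.28 and 9.81 M in TAC-mScarlet and 5.36 and 7.84 M in Sham-NT libraries. Values are CPM, counts scaled to a total of 1 M per library with TMM factors, and means carry the SD over 4 mice. All 35 genes had at least 5 counts in every library and passed the filter on low counts. Calls rest on edgeR's quasi-likelihood fit, with Benjamini-Hochberg adjusted p under 0.05 over 13910 genes. Libraries of every group fell on either side of a wide gap in the immediate early gene Fos, with 7 libraries at 54.9 to 301 CPM and 5 at 1.60 to 7.89 CPM. The libraries above 20 CPM of Fos, called Fos-high here, were TAC-BacNav 1 and 2, TAC-mScarlet 1, 2 and 3, and Sham-NT 1 and 2. TAC-mScarlet 3 stood apart in markers of other cell types: it had the highest fibroblast sum (6478 CPM, against 3442 to 3993 CPM in the other TAC-mScarlet hearts), the highest macrophage and monocyte sum (1353 against 811 to 836 CPM) and the lowest cardiomyocyte sum of the 12 (62445 CPM).

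In pressure overload with the control vector, Esm1, a secreted proteoglycan of sprouting endothelium, rose, and the peptide ligand gene Apln fell. The other 33 endothelial genes were not called in TAC-mScarlet against Sham-NT. The 2 called genes make 5.71% of the 35, beside 5.17% called among all genes tested, a share near the background. That background rests on single libraries: in place of 719 genes over the whole table, edgeR called 257, 14, 1078 and 20 when Sham-NT 1, 2, 3 or 4 was left out. Omitting TAC-mScarlet 1, 2, 3 or 4 left 646, 632, 97 and 224. At an unadjusted p below 0.05 stood 6 genes (Esm1, Sele, Podxl and Dll4 higher, Apln and Gpihbp1 lower in TAC-mScarlet), 17.1% beside 22.2% of all genes. TAC-BacNav against TAC-mScarlet gave 0 of 35 called, beside 0.0% of all genes. In TAC-BacNav against Sham-NT, 0 of 35 were called, beside 0.0144% of all genes.

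Median log2 fold changes of the 35 genes lay close to 0 in each comparison. For TAC-mScarlet against Sham-NT the median was 0.03, beside 0.0044 over all genes tested. TAC-BacNav against TAC-mScarlet gave 0.07, beside 0.0036, and TAC-BacNav against Sham-NT gave 0.09, beside 0.0079. With scaling by library size in place of TMM, the fold changes of all genes moved up by a median of 0.13 for TAC-mScarlet against Sham-NT, and the median of the 35 genes was then 0.17. Summed over the 35 genes, the libraries held 4185 to 5442 CPM in TAC-BacNav, 3790 to 4738 CPM in TAC-mScarlet and 3989 to 4803 CPM in Sham-NT hearts, so the 3 ranges overlapped. Because whole ventricle was sequenced, a change in the number of endothelial cells and a change in RNA per endothelial cell cannot be told apart.

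**Figure D1:**
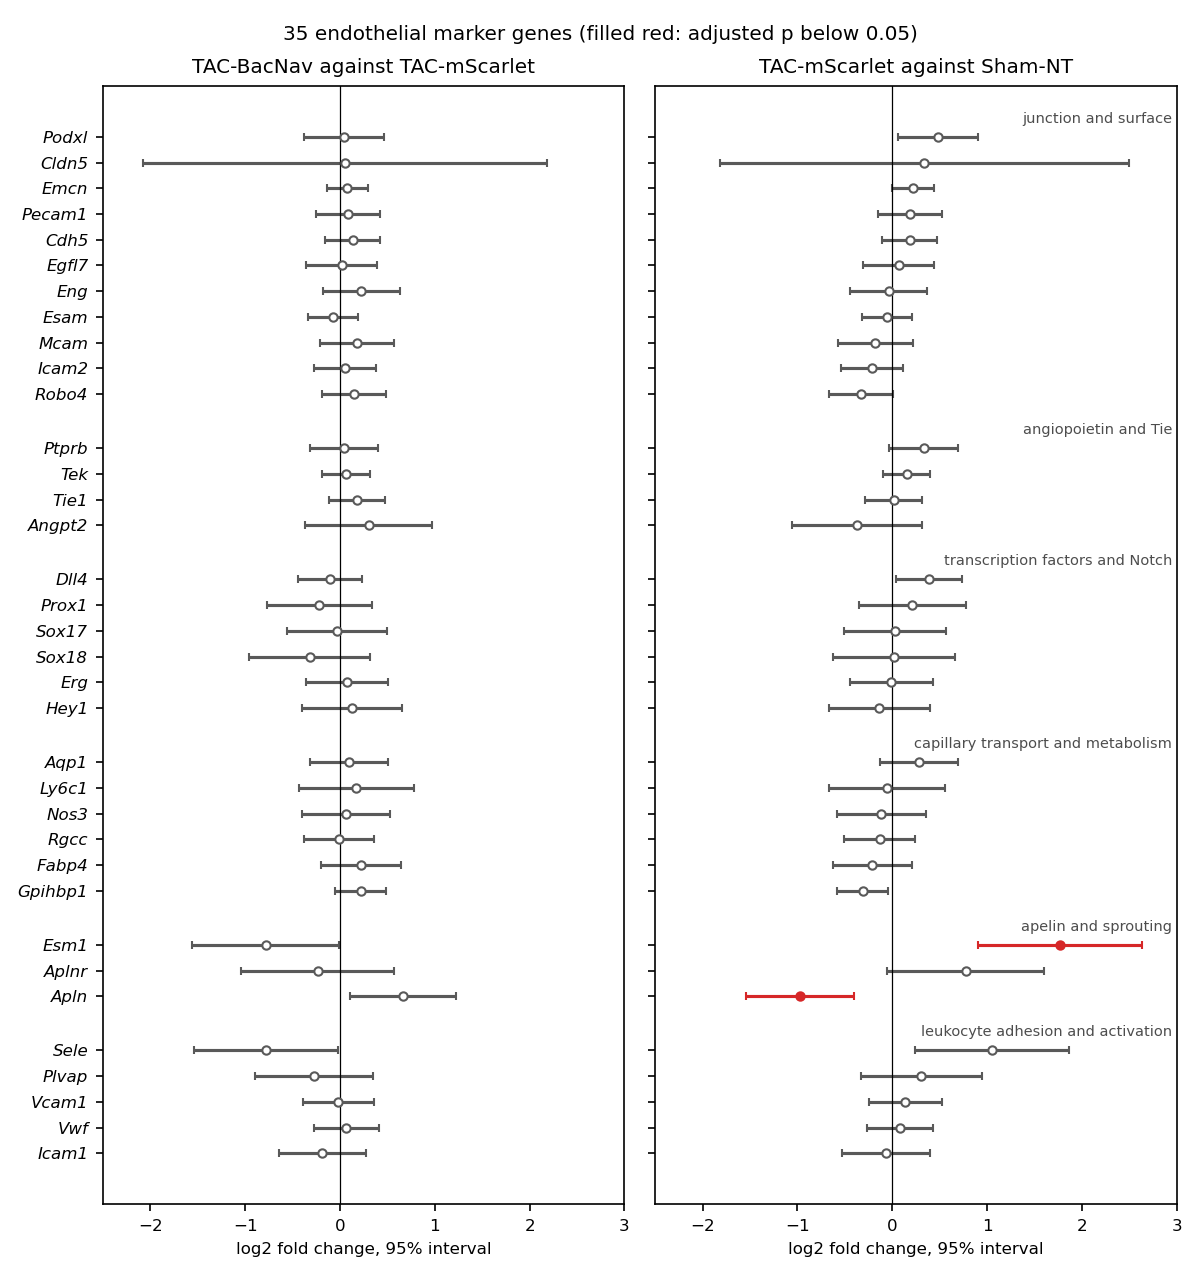
Log2 fold changes of the 35 endothelial genes (points) with 95% intervals (bars), grouped by role, for TAC-BacNav against TAC-mScarlet (left) and TAC-mScarlet against Sham-NT (right); filled red points have an adjusted p below 0.05. Esm1 and Apln are the called genes on the right, no gene is called on the left, and Cldn5 has the widest interval in both panels.

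Esm1 encodes endocan, which marks the tip cells of growing vessels and is induced by VEGF. It was at 2.09, 6.03, 3.34 and 5.92 CPM in TAC-BacNav, at 5.85, 6.80, 11.2 and 6.26 CPM in TAC-mScarlet and at 1.39, 4.10, 1.29 and 2.24 CPM in Sham-NT hearts. All 4 TAC-mScarlet hearts lay above all 4 Sham-NT hearts, while the TAC-BacNav hearts overlapped both other groups. The means were 4.35 ± 1.95, 7.53 ± 2.48 and 2.26 ± 1.30 CPM in TAC-BacNav, TAC-mScarlet and Sham-NT (SD, n = 4 each). Its log2 fold change in TAC-mScarlet against Sham-NT was 1.77 ± 0.41 (SE; edgeR quasi-likelihood, Benjamini-Hochberg adjusted p = 0.0270). Few reads stand behind it: 18 to 72 counts per TAC-BacNav library, 49 to 117 per TAC-mScarlet library and 7 to 21 per Sham-NT library. The edgeR call was lost when Sham-NT 1, Sham-NT 2, Sham-NT 4 or TAC-mScarlet 3 was left out (adjusted p = 0.0643, 0.0595, 0.0842 and 0.0898), with log2 fold changes between 1.5 and 2.20 over all 8 omissions. TAC-mScarlet 3, the heart with the highest fibroblast and macrophage sums, also had the highest Esm1 of the 12, and the part of those cells in the Esm1 values was not tested.

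Apln encodes apelin, the ligand of the receptor encoded by Aplnr, and is made by sprouting endothelial cells and, in the heart, other cells. Apln measured 19.9, 17.9, 12.0 and 13.6 CPM in TAC-BacNav, 10.6, 9.29, 5.75 and 14.4 CPM in TAC-mScarlet and 19.4, 13.5, 27.2 and 17.8 CPM in Sham-NT hearts. TAC-mScarlet 3, which stood apart in other cells' markers, was the lowest of all 12 hearts, and the TAC-mScarlet and Sham-NT groups overlapped through TAC-mScarlet 4. Group means were 15.8 ± 3.66, 10.0 ± 3.57 and 19.5 ± 5.72 CPM in TAC-BacNav, TAC-mScarlet and Sham-NT (SD, n = 4 each). The gene fell in TAC-mScarlet against Sham-NT, with a log2 fold change of -0.97 ± 0.27 (SE; edgeR quasi-likelihood, Benjamini-Hochberg adjusted p = 0.0468). That call sits just inside the threshold: it held in 1 of 8 omissions of a library, that of TAC-mScarlet 4, and was lost when any of Sham-NT 1 to 4 or TAC-mScarlet 1 to 3 was left out (edgeR adjusted p between 0.0470 and 0.130 over the 8). It was also lost with library size scaling (edgeR adjusted p = 0.0615), in a fit of the 2 groups alone (edgeR, 0.0610) and with limma-voom (adjusted p = 0.0511).

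Aplnr, the apelin receptor, had 16.0, 37.9, 34.6 and 45.0 CPM in TAC-BacNav, 29.6, 38.6, 56.4 and 32.4 CPM in TAC-mScarlet and 11.9, 13.9, 31.2 and 33.8 CPM in Sham-NT hearts. Sham-NT 1 and 2 were low and the other 2 Sham-NT hearts reached into the TAC-mScarlet range. Its log2 fold change in TAC-mScarlet against Sham-NT was 0.78 ± 0.38 (SE; edgeR quasi-likelihood, Benjamini-Hochberg adjusted p = 0.257). It was called in a fit with the mouse number as a block (log2 fold change 0.87, edgeR adjusted p = 0.0490). Within Fos-high libraries the log2 fold change was 1.69 (edgeR adjusted p = 0.0530), and within Fos-low libraries -0.01 (0.998), with 1 TAC-mScarlet heart on that side.

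The promoter windows of the 2 called genes are shown because their levels differed between groups. They run from 250 bases before to 50 bases after the start, from RefSeq on GRCm38.p6, 5′ to 3′ on the gene's own strand. The Esm1 window is chr13:113209409-113209708 (plus strand) and the Apln window chrX:48034804-48035103 (minus strand). The genes themselves lie at chr13:113209659-113218098 and chrX:48025146-48034853 in GENCODE vM21. Both strands were searched for the E-box CACGTG, the ETS-type string AGGAAG and the AP-1 motif TGANTCA. Capitals mark AGGAAG or its reverse complement. Other forms of the ETS motif, including shorter ones, were not searched.
Esm1: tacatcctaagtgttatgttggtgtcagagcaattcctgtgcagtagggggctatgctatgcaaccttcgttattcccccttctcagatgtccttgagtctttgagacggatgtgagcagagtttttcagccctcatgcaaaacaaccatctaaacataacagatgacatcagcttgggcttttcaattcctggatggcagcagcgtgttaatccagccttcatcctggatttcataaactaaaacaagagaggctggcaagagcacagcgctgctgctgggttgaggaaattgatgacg
Apln: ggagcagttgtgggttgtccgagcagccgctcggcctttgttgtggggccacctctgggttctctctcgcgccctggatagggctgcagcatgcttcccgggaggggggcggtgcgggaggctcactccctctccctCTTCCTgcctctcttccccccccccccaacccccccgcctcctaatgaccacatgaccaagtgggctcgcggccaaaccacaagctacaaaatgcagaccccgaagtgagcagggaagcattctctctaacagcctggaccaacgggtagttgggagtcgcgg
The Apln window holds 1 AGGAAG match, which begins at position -113 with the start counted as 0. The Esm1 window holds none of the 3 strings searched. Of the 35 genes, 18 had 24 windows in the RefSeq table. AGGAAG occurred in 12 of these 24 windows, beside 35.1% of 32534 promoter windows of the same length. Counted by gene it occurred in 11 of 18, and some of these genes had more than 1 window. CACGTG occurred in 0 of 24, beside 7.17%, and TGANTCA in 1 of 24, beside 7.79%. A match describes letters and is not a bound site.

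**Figure D2:**
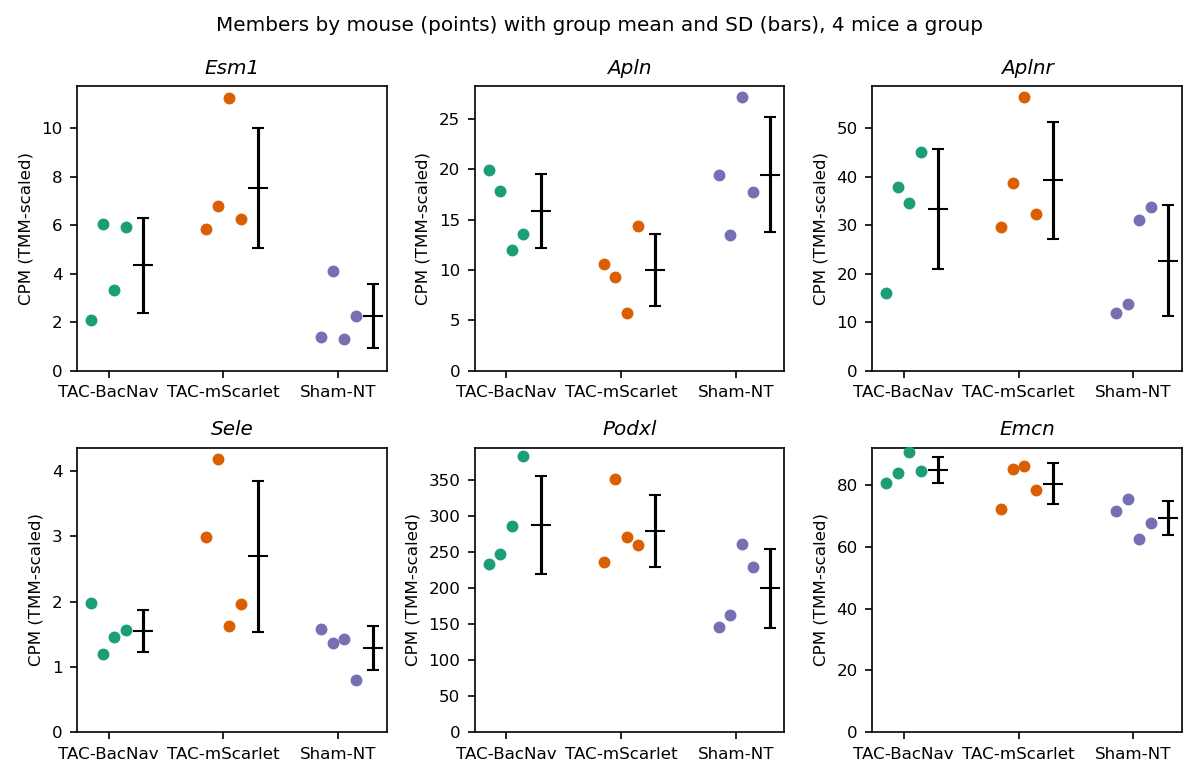
CPM of Esm1, Apln, Aplnr, Sele, Podxl and Emcn in each mouse (points) of the TAC-BacNav, TAC-mScarlet and Sham-NT groups, with the mean and SD. Esm1 and Sele have all 4 TAC-mScarlet hearts above all 4 Sham-NT hearts, and Emcn has all 4 TAC-BacNav hearts above all 4 Sham-NT hearts.

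None of the 4 angiopoietin and Tie genes was called in any comparison. Tek, the angiopoietin receptor Tie2, was among the steadiest of the set, at 84.7, 90.4, 111 and 113 CPM in TAC-BacNav, 84.2, 108, 96.1 and 93.4 CPM in TAC-mScarlet and 87.2, 90.6, 82.7 and 83.2 CPM in Sham-NT hearts. The 3 groups overlapped, and its log2 fold change in TAC-mScarlet against Sham-NT had a 95% interval of -0.10 to 0.40. Tie1, its co-receptor, averaged 98.4 ± 17.9, 87.0 ± 8.14 and 86.0 ± 12.5 CPM in TAC-BacNav, TAC-mScarlet and Sham-NT (SD, n = 4 each). Ptprb, the phosphatase VE-PTP that acts on Tek, averaged 189 ± 53.0, 184 ± 26.2 and 146 ± 12.3 CPM in the same order. Its log2 fold change in TAC-mScarlet against Sham-NT was 0.33 ± 0.17 (SE; edgeR quasi-likelihood, Benjamini-Hochberg adjusted p = 0.266). Angpt2, the angiopoietin that often opposes Tek signalling, was scarce, with 6.23 ± 2.08, 5.10 ± 1.64 and 6.57 ± 2.31 CPM in TAC-BacNav, TAC-mScarlet and Sham-NT (SD, n = 4 each). In TAC-BacNav against Sham-NT, Ptprb had a log2 fold change of 0.38 with an unadjusted 95% interval of 0.02 to 0.74 (edgeR adjusted p = 0.437). After adjustment, the test thus separated no change of these 4 genes from the spread between mice.

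Of the 11 junction and surface genes, none was called in any comparison. Cdh5, VE-cadherin of the adherens junction, had 146, 178, 211 and 219.7 CPM in TAC-BacNav, 158, 178, 162 and 189 CPM in TAC-mScarlet and 166, 126, 156 and 156 CPM in Sham-NT hearts. Pecam1, the adhesion molecule CD31, had 172, 193, 207 and 268 CPM in TAC-BacNav, 177, 199, 176 and 242 CPM in TAC-mScarlet and 143, 157, 209 and 188 CPM in Sham-NT hearts. In both genes the groups overlapped in each comparison. TAC-mScarlet against Sham-NT gave log2 fold changes of 0.18 ± 0.14 for Cdh5 and 0.19 ± 0.16 for Pecam1 (SE), with 95% intervals of -0.11 to 0.47 and -0.15 to 0.53.

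Podxl, a sialomucin of the luminal surface that mesothelium also makes, had 233, 248, 286 and 384 CPM in TAC-BacNav, 237, 352, 272 and 259.8 CPM in TAC-mScarlet and 146, 163, 262 and 229 CPM in Sham-NT hearts. Sham-NT 1 and 2 were the lowest of the 12, and Sham-NT 3 lay inside both TAC groups. Its log2 fold change in TAC-mScarlet against Sham-NT was 0.48 ± 0.20 (SE; edgeR quasi-likelihood, Benjamini-Hochberg adjusted p = 0.167). With the Fos side as a term in the fit it was called (0.63, edgeR adjusted p = 0.0281). The log2 fold change was 0.89 within Fos-high and 0.08 within Fos-low libraries, where TAC-mScarlet 4 was the only heart of its group. Summed mesothelial markers, 8 genes with none called, were between 15.3 and 111 CPM in TAC-BacNav, 22.5 and 77.2 CPM in TAC-mScarlet and 15.9 and 119.9 CPM in Sham-NT hearts, and their part in the Podxl values was not tested.

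Emcn, the mucin endomucin of capillary and venous endothelium, had the smallest spread within groups, a coefficient of variation of 7.17%. It measured 80.4, 83.6, 90.6 and 84.3 CPM in TAC-BacNav, 72.2, 85.1, 86.1 and 78.2 CPM in TAC-mScarlet and 71.4, 75.3, 62.4 and 67.6 CPM in Sham-NT hearts. All 4 TAC-BacNav hearts lay above all 4 Sham-NT hearts, the single non-overlap among the 35 genes in that comparison (2.86%, beside 5.45% of all genes). The log2 fold change there was 0.29 ± 0.10 (SE; edgeR quasi-likelihood, Benjamini-Hochberg adjusted p = 0.367).

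Cldn5, the tight junction claudin of endothelium, varied more within groups than any other of the 35 genes, with a coefficient of variation of 83.7% and an 11.8-fold range over the 12 hearts. It measured 136, 129.9, 21.5 and 17.3 CPM in TAC-BacNav, 105, 72.0, 100.2 and 16.2 CPM in TAC-mScarlet and 143, 58.4, 12.2 and 20.3 CPM in Sham-NT hearts. The 7 Fos-high libraries held 58.4 to 143 CPM and the 5 Fos-low libraries 12.2 to 21.5 CPM, with no overlap. The ratio of Fos-high to Fos-low means was 6.86 in TAC-BacNav, 5.69 in TAC-mScarlet and 6.20 in Sham-NT. Between groups the log2 fold change was 0.05 ± 0.95 for TAC-BacNav over TAC-mScarlet and 0.34 ± 0.96 for TAC-mScarlet over Sham-NT (SE). With the Fos side as a term these became 0.44 ± 0.24 and -0.10 ± 0.24, neither called. Summed mesothelial markers split the libraries the same way, at 55.6 to 119.9 CPM in Fos-high and 15.3 to 24.6 CPM in Fos-low libraries. The sides thus also differed in markers of another cell type, whose part in the Cldn5 values was not tested.

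Eng, endoglin, a co-receptor for BMP9 and TGF-beta, stood the other way round, at 99.3 to 155 CPM in Fos-high and 165 to 199 CPM in Fos-low libraries. Ly6c1, a surface protein of mouse capillary endothelium, measured 194 to 277 CPM in Fos-high and 294 to 439 CPM in Fos-low libraries. These 3 genes make 8.57% of the 35 without overlap between the 2 sides, beside 2.62% of all genes. Taken within each group, 7 genes had the higher mean in Fos-high libraries in all 3 groups and 11 had the lower mean. The 11 included Pecam1, Cdh5, Tie1, Erg, Ptprb and Sox18, and the 7 included Cldn5, Egfl7, Plvap, Prox1 and Hey1. Over all genes tested, 20.9% were higher and 19.5% lower in Fos-high libraries in all 3 groups, beside 20.0% and 31.4% of the 35. The sides were read from the data and are not treatments, so no test was made between them.

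The promoter windows of Cldn5 and Eng are shown because these genes differed between the Fos sides in opposite directions. On GRCm38.p6 (RefSeq) they are chr16:18776597-18776896 and chr2:32646345-32646644, both on the plus strand, and capitals mark AGGAAG or its reverse complement.
Cldn5: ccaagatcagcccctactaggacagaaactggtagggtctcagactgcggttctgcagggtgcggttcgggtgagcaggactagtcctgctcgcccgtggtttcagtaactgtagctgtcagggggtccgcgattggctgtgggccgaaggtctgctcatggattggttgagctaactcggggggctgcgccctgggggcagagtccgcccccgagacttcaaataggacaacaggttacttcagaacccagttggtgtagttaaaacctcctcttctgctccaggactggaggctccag
Eng: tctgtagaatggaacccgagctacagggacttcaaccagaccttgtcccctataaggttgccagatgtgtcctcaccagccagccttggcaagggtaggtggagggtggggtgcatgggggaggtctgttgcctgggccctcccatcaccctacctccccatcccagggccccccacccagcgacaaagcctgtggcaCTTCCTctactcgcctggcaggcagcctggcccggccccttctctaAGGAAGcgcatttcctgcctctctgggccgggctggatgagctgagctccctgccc
The Eng window holds 2 AGGAAG matches, beginning at positions -52 and -6 with the start counted as 0. The Cldn5 window holds none of the 3 strings searched. The Cldn5 gene lies at chr16:18776847-18778262 and Eng at chr2:32646595-32682669 in GENCODE vM21. Exons of Eng share 61 bases with Fpgs on the opposite strand, and since the sources used here do not give the strand setting of the counts, reads of the shared stretch cannot be told apart. Egfl7, Sox17, Nos3, Mcam, Icam1, Vcam1, Prox1 and Dll4 likewise share exon bases with another annotated gene, which makes 9 of the 35 genes.

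**Figure D3:**
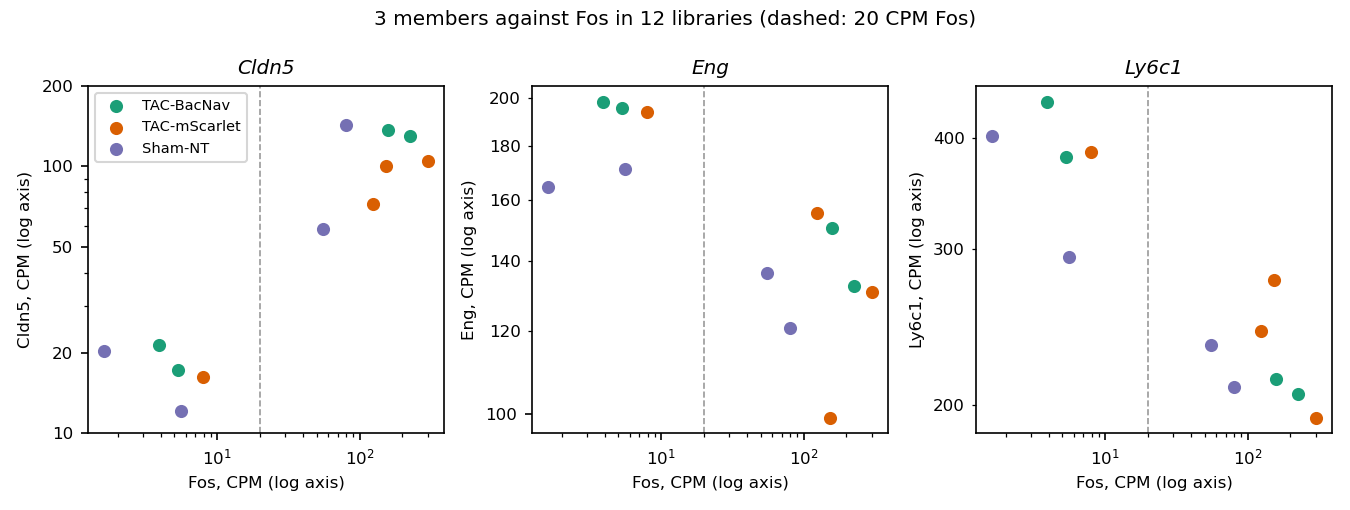
CPM of Cldn5, Eng and Ly6c1 (y, log axes) against CPM of Fos (x, log axis), 1 point a mouse, coloured by group, with a line at 20 CPM of Fos. Cldn5 lies at 58.4 to 143 CPM right of the line and 12.2 to 21.5 CPM left of it, while Eng and Ly6c1 are higher on the left.

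For the remaining junction and surface genes, the hearts of the groups overlapped in each comparison. Egfl7, a secreted vascular protein whose gene hosts Mir126a, averaged 144 ± 33.4, 142 ± 14.8 and 135 ± 26.3 CPM in TAC-BacNav, TAC-mScarlet and Sham-NT (SD, n = 4 each). Esam, an adhesion molecule of tight junctions, averaged 89.7 ± 5.95, 94.4 ± 2.61 and 98.2 ± 18.7 CPM in the same order. Robo4, a guidance receptor of quiescent endothelium, averaged 59.9 ± 13.3, 54.1 ± 8.01 and 68.0 ± 9.13 CPM, with a log2 fold change of -0.33 ± 0.16 (SE) in TAC-mScarlet against Sham-NT that was not called. Icam2, a resting endothelial ligand for leukocyte integrins, and Mcam, which pericytes and smooth muscle also express, had log2 fold changes between -0.21 and 0.18 in the contrasts of TAC-BacNav with TAC-mScarlet and of TAC-mScarlet with Sham-NT.

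The 6 capillary transport and metabolism genes had a median log2 fold change of -0.12 in TAC-mScarlet against Sham-NT, which turned to 0.005 with library size scaling, and none was called. Gpihbp1, which carries lipoprotein lipase to the capillary lumen, measured 136, 117, 155 and 132 CPM in TAC-BacNav, 108, 121, 107 and 129 CPM in TAC-mScarlet and 144, 140.0, 119 and 174 CPM in Sham-NT hearts. TAC-mScarlet 1 and 3 were the lowest of the 12, and the groups overlapped. The log2 fold change was -0.31 ± 0.13 in TAC-mScarlet against Sham-NT (SE; edgeR quasi-likelihood, Benjamini-Hochberg adjusted p = 0.165) and 0.22 ± 0.13 in TAC-BacNav against TAC-mScarlet.

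Fabp4, a fatty acid binding protein of capillary endothelium that fat cells also make, measured 1231, 1246, 2051 and 1705 CPM in TAC-BacNav, 1027, 1262, 1497 and 1565 CPM in TAC-mScarlet and 1393, 1889, 1163 and 1742 CPM in Sham-NT hearts. Aqp1, a water channel shared with red cells, measured 646, 476, 471 and 537 CPM in TAC-BacNav, 492, 669, 350.3 and 480.1 CPM in TAC-mScarlet and 356, 306, 496 and 478 CPM in Sham-NT hearts. The 3 groups overlapped for both genes. Nos3, the endothelial nitric oxide synthase, averaged 26.1 ± 6.07, 24.9 ± 2.51 and 27.1 ± 9.85 CPM, and Rgcc, a cell cycle regulator abundant in capillaries, 54.8 ± 12.5, 55.1 ± 7.27 and 60.4 ± 13.9 CPM, in TAC-BacNav, TAC-mScarlet and Sham-NT (SD, n = 4 each). Ly6c1 averaged 310 ± 118, 275 ± 81.5 and 285 ± 85.9 CPM in the same order, and its counts are uncertain because the Ly6c2 gene is nearly identical.

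Among the 5 leukocyte adhesion and activation genes measured, none was called. Sele encodes E-selectin, which activated endothelium displays to roll leukocytes. It measured 1.98, 1.21, 1.47 and 1.56 CPM in TAC-BacNav, 2.99, 4.19, 1.63 and 1.97 CPM in TAC-mScarlet and 1.59, 1.37, 1.42 and 0.801 CPM in Sham-NT hearts. Every TAC-mScarlet heart lay above every Sham-NT heart, by little in TAC-mScarlet 3, and the TAC-BacNav hearts overlapped both groups. Esm1 and Sele, 5.71% of the 35, were the genes without overlap between TAC-mScarlet and Sham-NT, beside 13.1% of all genes. The log2 fold change of Sele there was 1.05 ± 0.38 (SE; edgeR quasi-likelihood, Benjamini-Hochberg adjusted p = 0.119). It rests on 10 to 19 counts per TAC-BacNav library, 17 to 37 per TAC-mScarlet library and 5 to 11 per Sham-NT library.

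Icam1 and Vcam1, the inducible integrin ligands, stayed within their spread. Icam1 averaged 11.7 ± 1.37, 13.3 ± 3.22 and 14.0 ± 4.42 CPM and Vcam1 37.3 ± 3.34, 37.7 ± 9.44 and 34.3 ± 7.41 CPM in TAC-BacNav, TAC-mScarlet and Sham-NT (SD, n = 4 each). Vwf, the clotting factor stored in endothelial granules, averaged 61.2 ± 5.48, 58.4 ± 9.13 and 55.3 ± 13.3 CPM in the same order. Plvap, of the diaphragms of fenestrae and caveolae, averaged 6.34 ± 2.30, 7.65 ± 2.04 and 6.25 ± 2.40 CPM. None of these 4 had groups that stood apart.

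None of the 6 transcription factor and Notch genes was called. Dll4, the Notch ligand of arterial and tip cells, averaged 34.0 ± 2.73, 36.5 ± 5.99 and 27.8 ± 6.01 CPM in TAC-BacNav, TAC-mScarlet and Sham-NT (SD, n = 4 each). Its log2 fold change in TAC-mScarlet against Sham-NT was 0.39 ± 0.16 (SE; edgeR quasi-likelihood, Benjamini-Hochberg adjusted p = 0.172), and Sham-NT 2, at 19.1 CPM, was the lowest of the 12 hearts. Erg, an ETS factor that maintains endothelial identity, averaged 40.9 ± 13.1, 38.9 ± 5.24 and 39.1 ± 7.86 CPM in the same order. Sox17, an arterial fate factor, averaged 21.5 ± 3.15, 21.9 ± 7.68 and 21.6 ± 6.49 CPM, and Sox18, a lymphatic fate factor, 20.0 ± 6.96, 25.0 ± 9.11 and 24.7 ± 7.27 CPM. Prox1, the lymphatic master factor that heart muscle also expresses, averaged 41.1 ± 8.35, 47.8 ± 15.1 and 41.2 ± 13.1 CPM, and the Notch target Hey1 31.1 ± 11.2, 28.5 ± 6.15 and 31.4 ± 9.65 CPM. Log2 fold changes of Erg, Sox17, Sox18 and Hey1 lay between -0.32 and 0.13 in the contrasts of TAC-BacNav with TAC-mScarlet and of TAC-mScarlet with Sham-NT.

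**Figure D4:**
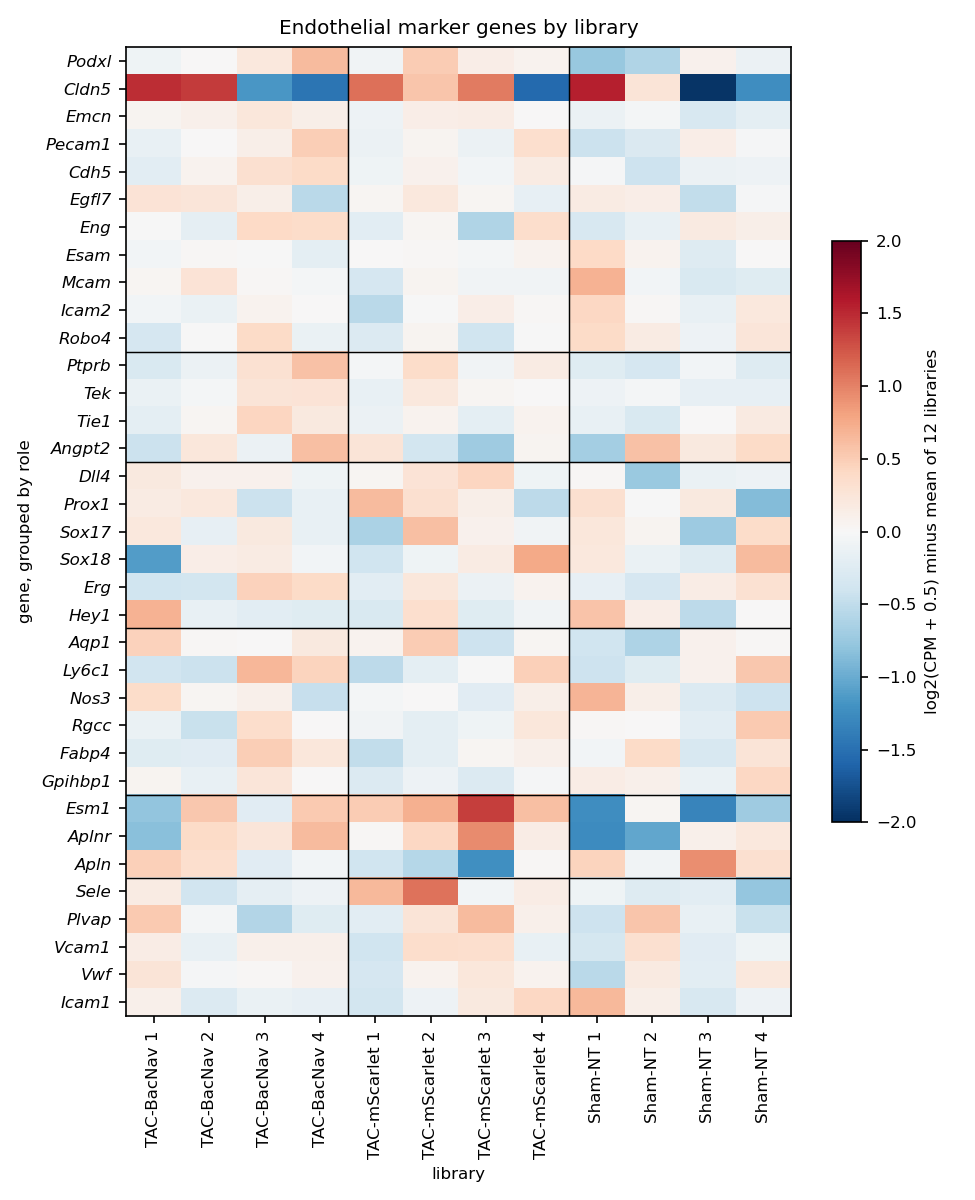
Log2(CPM + 0.5) of each of the 35 genes in each of the 12 libraries, relative to the gene's mean over all libraries, with genes grouped by role and libraries by group. Cldn5 changes colour with the Fos side in every group, and Esm1 lies above its mean in all 4 TAC-mScarlet hearts.

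Set against exon length, the endothelial genes spanned a wide range of levels. Fabp4 was highest, at 347, 298 and 345 CPM per kb of exons in TAC-BacNav, TAC-mScarlet and Sham-NT, followed by Aqp1 at 203, 189.6 and 156 and Ly6c1 at 185, 164 and 170.0 CPM per kb. Exon lengths join all annotated transcripts of a gene. For Fabp4 this length, 4489 bases, covers the whole gene from start to end, so its level per kb may be too low. The ranges of Aqp1 and Ly6c1 over libraries overlapped, so their order is within the spread. At the other end stood Sele and, above it, Angpt2 and Esm1, whose ranges overlapped each other. Averaged over the 12 hearts, Cdh5 was at 40.5, Pecam1 at 31.2, Tek at 19.9 and Tie1 at 18.4 CPM per kb. The within-group coefficient of variation had a median of 21.9% over the 35 genes, beside 19.1% over all genes tested.

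**Figure D5:**
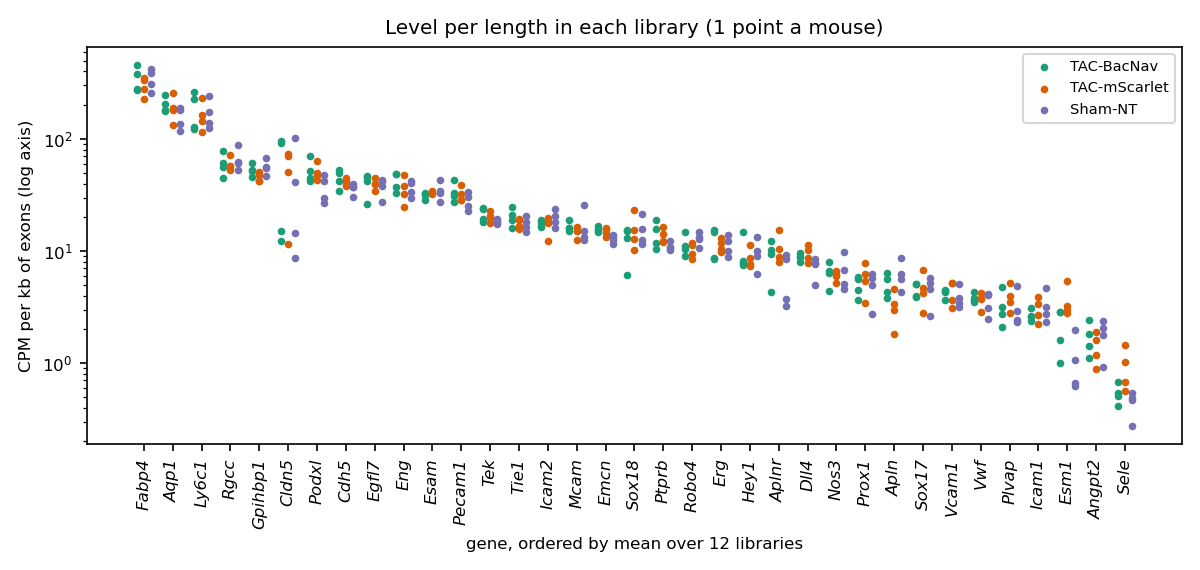
CPM per kb of exons (y, log axis) of the 35 endothelial genes in each library, 1 point a mouse, coloured by group and ordered by the mean over 12 libraries. Fabp4 is highest and Sele lowest, and the Cldn5 points split into a high and a low cluster in every group.

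The comparison of TAC-BacNav with TAC-mScarlet asks whether the channel changed endothelial transcripts in loaded hearts. In edgeR each of the 35 genes had the same Benjamini-Hochberg adjusted p = 0.9995, and limma-voom and DESeq2 also called 0 of 35. Of these, 3 had an unadjusted p below 0.05 in edgeR, 8.57% beside 3.36% of all genes. Apln was higher in TAC-BacNav, with a log2 fold change of 0.67 and a 95% interval of 0.10 to 1.23. Esm1 was lower, at -0.78 (-1.56 to -0.01), and Sele was lower, at -0.78 (-1.54 to -0.02). None of these passed the adjustment, and for each the TAC-BacNav and TAC-mScarlet hearts overlapped, as they did for all 35 genes (0 of 35, beside 1.7% of all genes). These comparisons share the TAC-mScarlet hearts with those against Sham-NT, so an unusual TAC-mScarlet heart moves both.

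A missed threshold does not show that TAC-BacNav and TAC-mScarlet hearts were alike. For 16 of the 35 genes the 95% interval of the log2 fold change lay within -0.5 and 0.5, and for 30 within -1 and 1. Those reaching beyond 1 were Cldn5, Aplnr, Apln, Esm1 and Sele. Intervals for core genes were narrow, for instance -0.26 to 0.42 for Pecam1, -0.15 to 0.42 for Cdh5 and -0.18 to 0.32 for Tek. Within Fos-high libraries the Apln log2 fold change was 1.15, not called by edgeR. Within Fos-low libraries it was -0.17, with TAC-mScarlet 4 the only heart of its group on that side.

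Against Sham-NT, TAC-BacNav hearts had 5 endothelial genes with an unadjusted p below 0.05 in edgeR, 14.3% beside 11.1% of all genes, all with positive fold changes. Their log2 fold changes were 0.52 for Podxl, 0.98 for Esm1, 0.29 for Emcn, 0.38 for Ptprb and 0.32 for Cdh5, and none was called by edgeR, limma-voom or DESeq2. The 95% interval for Esm1 was 0.10 to 1.87 and that for Apln, whose log2 fold change was -0.31, was -0.86 to 0.24.

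Other genes of the same pathways were called in TAC-mScarlet against Sham-NT and in no other comparison by edgeR. Of 34 further endothelial genes, 3 rose and none fell, beside 5.17% of all genes called (369 up and 350 down). Lmo2, a blood and vessel transcription adaptor, averaged 55.1 ± 7.48 CPM in TAC-mScarlet and 34.7 ± 4.13 CPM in Sham-NT (SD, n = 4 each; edgeR quasi-likelihood, Benjamini-Hochberg adjusted p = 0.0204). Elk3, an ETS factor, rose by 0.56 ± 0.14 on the log2 scale (SE; edgeR, adjusted p = 0.0353). Cd34, a sialomucin shared with fibroblasts and progenitors, rose by 0.57 ± 0.15 (SE; edgeR, adjusted p = 0.0381). The median of the 34 was 0.21, beside 0.0044 over all genes.

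Among 15 apelin and tip cell partners 2 rose and 1 fell, again to be read beside 5.17% of all genes. Cd34 is one of those that rose and the netrin receptor Unc5b the other, at 26.7 ± 1.90 CPM in TAC-mScarlet and 14.9 ± 4.27 CPM in Sham-NT (SD, n = 4 each; edgeR quasi-likelihood, Benjamini-Hochberg adjusted p = 0.0241). Pgf, placental growth factor and a VEGF receptor ligand, fell, at 9.96 ± 3.12 CPM in TAC-mScarlet and 19.3 ± 4.78 CPM in Sham-NT (edgeR quasi-likelihood, Benjamini-Hochberg adjusted p = 0.0497). Heyl was the 1 of 15 Notch genes called, with a log2 fold change of 0.75 ± 0.17 (SE; edgeR, adjusted p = 0.0258). Ednrb, the endothelin B receptor, was the 1 of 18 nitric oxide and shear genes called, at 0.86 ± 0.19 (SE; edgeR, adjusted p = 0.0258). Svep1, a large matrix protein needed in lymphatic vessels, was the 1 of 9 angiopoietin and Tie partners called, with 48.9 ± 30.7 CPM in TAC-mScarlet and 12.5 ± 1.87 CPM in Sham-NT (SD, n = 4 each) and a log2 fold change of 1.98 ± 0.46 (SE; edgeR, adjusted p = 0.0351). None of 15 ALK1, BMP and endoglin genes and none of 20 leukocyte adhesion partners was called. Lists of 9 to 18 genes with 1 called are too short to set against the 5.17% of all genes.

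These calls had edgeR adjusted p of 0.0204 (Lmo2) to 0.0497 (Pgf) and depended on single libraries. So did calls over all genes, where 719 fell to 14, 20 and 97 without Sham-NT 2, Sham-NT 4 or TAC-mScarlet 3. Leaving out each of the 8 libraries in turn kept the edgeR call of Lmo2, Heyl and Ednrb in 5, of Cd34 and Unc5b in 3, of Svep1 in 2, of Elk3 in 1 and of Pgf in 0. Lmo2, Heyl and Ednrb each lost it without Sham-NT 2, Sham-NT 4 or TAC-mScarlet 3, with edgeR adjusted p up to 0.0773, 0.0868 and 0.0876. Cd34 and Unc5b each lost it without Sham-NT 1, 2 or 4 or TAC-mScarlet 3 or 4 (edgeR adjusted p up to 0.127 and 0.0799). Svep1 lost it without any of the 4 Sham-NT hearts or TAC-mScarlet 3 or 4, Elk3 without any heart but TAC-mScarlet 4, and Pgf without any of the 8 (edgeR adjusted p up to 0.101, 0.116 and 0.152).

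Markers of other cell types differed between the same groups, with counts to be read beside 5.17% of all genes called in TAC-mScarlet against Sham-NT. Without Sham-NT 2, Sham-NT 4 or TAC-mScarlet 3, the calls over all genes fell from 719 to 14, 20 and 97. Whether these markers kept their calls then is not given here. Cardiomyocyte markers fell in 4 of 10 genes in TAC-mScarlet against Sham-NT (Atp2a2, Myh6, Tnni3 and Tnnt2), and their summed level was 76143 to 100107 CPM in TAC-BacNav, 62445 to 83317 CPM in TAC-mScarlet and 99993 to 110465 CPM in Sham-NT. Fibroblast markers rose in 3 of 10 genes (Col1a1, Col1a2 and Lum), with sums of 3316 to 3783, 3442 to 6478 and 2423 to 3194 CPM in TAC-BacNav, TAC-mScarlet and Sham-NT. Macrophage and monocyte markers rose in 6 of 12 genes, with sums of 791 to 942, 811 to 1353 and 537 to 729 CPM in the same order, and the top of both TAC-mScarlet ranges was TAC-mScarlet 3 alone. Arterial markers rose in 2 of 10 genes (Efnb2 and Fbln5), venous markers in 0 of 5, lymphatic in 0 of 6 and endocardial in 0 of 6, and none of these lists had a gene that fell. In a capillary list that heart muscle partly shares, Lpl fell and the other 8 genes were not called. Smooth muscle and pericyte, platelet and erythroid, and proliferation markers held no called gene between these groups. Immediate early genes held none either, yet all 14 had fold changes above 0, with a median log2 fold change of 1.38 in TAC-mScarlet against Sham-NT, and all 14 likewise, with a median of 1.25, for TAC-BacNav over Sham-NT. Their sums were 466 to 3588 CPM in TAC-BacNav, 575 to 3874 CPM in TAC-mScarlet and 349 to 1880.0 CPM in Sham-NT. Of 10 lymphocyte markers 2 were tested, both above 0 and neither called, with a median of 1.17 in TAC-mScarlet against Sham-NT. No list held a gene called by edgeR between TAC-BacNav and either other group. No marker of these lists with a row was at 0 in all 12 libraries. The part of these other cells in the endothelial values was not tested.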

How the data were processed

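Ventricular RNA of 12 mice was sequenced as paired reads, 4 mice per group. Counts per gene were deposited as whole numbers by the authors. Per the submitters' processing notes, HISAT2 and featureCounts made them. The notes name GRCh38, but the deposited identifiers are mouse; 14946 of 14957 matched GENCODE vM21 (GRCm38), which gave positions and exon lengths. The strand setting was not given in the sources used here.

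Tests on these counts used edgeR 4.0.16 under R 4.3.3. filterByExpr by group kept 13910 genes and removed 1047. One robust quasi-likelihood model covered the 12 libraries, with TMM scaling; tests were two-sided and Benjamini-Hochberg adjusted over the genes kept. The SE is the log2 fold change divided by the root of its F statistic, and intervals are 95%. The common biological coefficient of variation was 0.203. Alternatives were RLE and library size scaling, no filter, a replicate block, the Fos side as a term, the 2 groups alone, each library left out, limma-voom (limma 3.58.1) and DESeq2 1.42.0. Members and lists were chosen with earlier results of these data known. Named genes are the list members and, from the pathway lists, called genes. Splitting comparisons within the Fos sides was chosen after seeing the data. Depth was 5.36 to 11.5 M counts (mega-counts) per library, so values of 5 to 20 counts carry large counting error. Each mouse is a separate animal, and replicates differed by more than counting error (chi-square over its degrees of freedom at least 5.35).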

Additional observations from a re-analysis of the deposited data

Results flagged for a closer look

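Hey1 in TAC-BacNav 1 was far above the other 3 TAC-BacNav hearts, at 47.9 CPM against 24.7 to 26.3 CPM. Its gap to the nearest heart took 0.929 of the group's range, above Dixon's 95% critical value for 4 samples. Vcam1 in TAC-BacNav 2 was below the other 3 TAC-BacNav hearts, at 32.3 CPM against 38.5 to 39.6 CPM, with a gap of 0.840 of the range. Among 105 groups of 4 looked at (35 genes in 3 groups), these were the 2 past the critical value, while chance gives about 1 in 20.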

How the results depend on the processing

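The 2 genes called in TAC-mScarlet against Sham-NT stayed at 2 under RLE scaling, no filter and DESeq2, and became 3 with the Fos side as a term (Esm1, Apln and Podxl). The number was 1 with library size scaling, 1 with the 2 groups alone and 1 with limma-voom, and 0 within Fos-high and 0 within Fos-low libraries, where fewer hearts were compared. Leaving out each library gave 0 to 2: 0 without Sham-NT 1, 2 or 4 or TAC-mScarlet 3, 1 without Sham-NT 3 or TAC-mScarlet 1 or 2, and 2 without TAC-mScarlet 4. All-gene counts moved too, from 719 to 257, 14, 20 and 97 in the omissions that left 0, to 1459 with the Fos term, 1370 with DESeq2, 903 with library size scaling, 467 with limma-voom, and 87 and 20 within the Fos-high and Fos-low libraries. In the other 2 comparisons, 0 of 35 genes were called under every alternative run. The median log2 fold change of the 35 was 0.17 with library size scaling in TAC-mScarlet against Sham-NT and 0.18 in TAC-BacNav against Sham-NT, a shift shared by all genes. It was -0.011 within Fos-high libraries in TAC-BacNav against TAC-mScarlet and 0.17 within Fos-low libraries in TAC-BacNav against Sham-NT; the cause was not tested. Leaving out each library gave medians of 0.0040 to 0.11 in TAC-mScarlet against Sham-NT, 0.01 to 0.11 in TAC-BacNav against TAC-mScarlet and 0.07 to 0.13 in TAC-BacNav against Sham-NT. The sources used here do not say whether mouse numbers pair the samples. Same-number correlations were -0.29 to 0.38, with 8 of 12 above 0.1, and different-number correlations were -0.37 to 0.51. These values do not settle it. In every group mice 1 and 2 were Fos-high and mouse 4 was Fos-low. With the replicate block, Esm1 (1.85, edgeR adjusted p = 0.0133) and Aplnr (0.87, 0.0490) were called and Apln was not (0.0521), and the count stayed at 2. Among values of single endothelial genes, 1663 kept direction and side of the threshold, 206 uncalled values changed sign, 19 lost a call, 2 gained one and none that was called reversed. Depth limits Sele and Esm1 most, at 5 to 37 and 7 to 117 counts per library.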
